A study of Homo sapiens with 6 samples.

Results

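Integrin and laminin subunit genes were followed in SKOV-3 and Caov-3, 2 established cell lines from human ovarian carcinoma. The members were 36 named genes, each represented by its brightest probe set among those that the array annotation ties to that gene alone. Such a probe set was present for 34 of the 36 genes, out of 19775 genes in all. These were 17 integrin alpha subunits, 7 integrin beta subunits and 10 laminin chains, covered by 94 probe sets, with several probe sets for 25 genes. ITGB6 and LAMA3 had no probe set with only their own symbol and were not analysed here.

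Integrins are receptors of the cell surface built from an alpha and a beta subunit, and a subunit reaches the surface only with a partner. The partners set the ligand: collagen, laminin, fibronectin and other proteins that carry an RGD sequence, or counter-receptors on other cells. Laminins are secreted trimers of an alpha, a beta and a gamma chain and form a main sheet of basement membranes, where integrins with alpha 3, alpha 6 or alpha 7 bind them. In ovarian carcinoma these receptors hold cells to the matrix of the peritoneum and to each other.

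Each line had 3 arrays: untreated cells, cells exposed for 1 h to the cytokine IL-6 (interleukin-6) at 30 ng/ml, and cells given the anti-IL-6 antibody siltuximab (CNTO328) for 4 h before the same IL-6 for 1 h. How much siltuximab was added is not given in the sources used here. Every array held RNA pooled from 3 flasks, so a line and treatment had 1 array and no replicate. The 3 arrays of a line are 3 treatments, and a p-value between the lines is set against how far their difference varies over the treatments. A p-value for a treatment is set against how far its effect differs between the lines. A response in 1 line alone therefore counts as error. With so few arrays, all values have limited precision.

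The keratin genes KRT8 and KRT18 and the adhesion gene EPCAM stood above the array median on all arrays of both lines, as did PAX8, a Mullerian factor and 1 of 4 ovarian carcinoma markers. Of the other 3, MUC16 and MSLN were above it on the Caov-3 arrays only (SKOV-3 signals 2.9 to 5.9 and 8.6 to 28.5), and WT1 was below it on all 6 arrays. The junction gene CDH1 and the keratin KRT19 did so only in Caov-3, where all 6 epithelial markers passed, against 4 of 6 in SKOV-3. The median signal of single-gene probe sets was 102.1 to 121.8 on the 6 arrays, and that array median is the level used below to call a signal low. The 5' to 3' ratio of the beta-actin control, a gauge of RNA integrity, was lowest for Caov-3 with IL-6 (0.494) and lay between 0.643 and 0.767 elsewhere, whereas that of GAPDH was 1.053 on that array and 0.957 to 1.066 elsewhere.

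The first comparison asked how the 2 lines differed in their subunits across all treatments. Caov-3 had more signal of the integrin beta genes ITGB8, ITGB2, ITGB4 and ITGB5, of the alpha genes ITGA7 and ITGA2B and of the laminin chains LAMA1, LAMB3, LAMA5 and LAMB2. SKOV-3 had more of ITGA6, ITGA5, LAMA4, LAMC1 and LAMB1. The fit was run with limma on log2(signal + 17.06), with treatment as a block, and genes were called at a Benjamini-Hochberg adjusted p under 0.05. In these bulk samples, fewer expressing cells and less RNA per cell cannot be told apart.

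A gene entered this test if at least 2 arrays were at or above the array median, which 21 of the 34 measured subunit genes did. Of these, 13 were called higher and 5 lower in Caov-3, and 3 were not called. That is 85.7% of the genes tested, where 70.8% of all 12290 genes tested were called, 38.6% higher and 32.3% lower. The lines therefore differed in most genes, and a call alone says little about a subunit. The filter shapes these counts, because 5 of the 21 (ITGA2B, ITGA7, ITGB2, LAMA1 and LAMA4) passed it through 1 line only and so had to lie apart. With all 34 measured genes in an unfiltered fit, 15 were called higher and 6 lower, 61.8% against 44.6% of all 19775 genes. In that fit the median absolute log2 difference was 0.99 among the 34 and 0.51 among all genes, and 17 of the 34 (50%) reached a difference of at least 1, against 24.9%. Among genes that were tested and reached the median in both lines, the median absolute difference was 1.18 for 16 subunit genes and 0.59 for all 10725 genes. The 3 arrays of Caov-3 did not overlap those of SKOV-3 for 18 of the 21, against 74.1% of all genes tested.

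**Figure D1:**
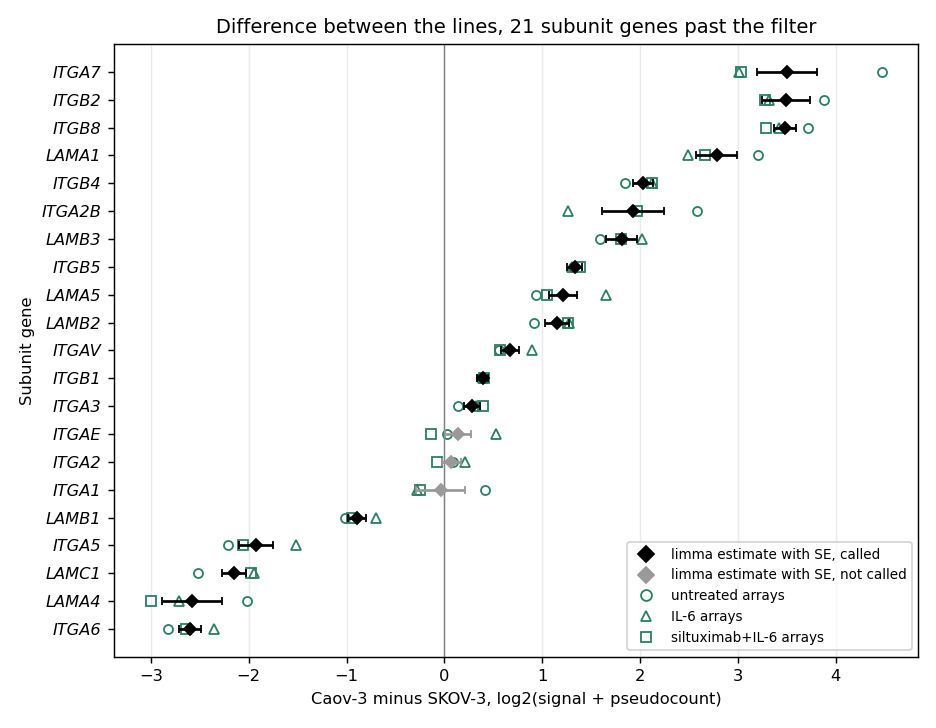
Difference between Caov-3 and SKOV-3 in log2(signal + 17.06) for the 21 subunit genes past the filter; diamonds are limma estimates with SE (black where called, grey where not), and open symbols are the differences within each of the 3 treatments. ITGA7, ITGB2 and ITGB8 lie near 3.5, ITGA6 and LAMA4 near -2.6, and the 3 grey genes (ITGAE, ITGA2 and ITGA1) have treatments on both sides of 0.

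Among the alpha subunits that bind laminin, ITGA6 had signals of 4685, 4056 and 4296 in SKOV-3 (untreated, IL-6, siltuximab plus IL-6) and of 649.8, 784 and 677 in Caov-3. All SKOV-3 arrays were several times brighter than any Caov-3 array, and ITGA6 was lower in Caov-3 (log2 difference -2.60, SE 0.111, adjusted p 2.49e-06). The second ITGA6 probe set differed alike, by -2.55. ITGA7, which is best known from muscle and pairs with beta 1, was the mirror of this, with 24.7, 58.6 and 86.6 in SKOV-3 against 907, 591 and 830.4 in Caov-3. It was below the array median on all 3 SKOV-3 arrays and above it on all 3 Caov-3 arrays (3.50, SE 0.310, adjusted p 5.71e-05), and its second probe set was at 2.89. The 5 fibroblast and muscle markers summed to 359 to 516 in SKOV-3 and 3995 to 4971 in Caov-3, which was mostly COL1A1 (217 to 339 and 3802.5 to 4826), while DES, DCN, LUM and PDGFRB were below the median on all arrays, and their part in the result was not tested. ITGA3, the epithelial receptor for laminins with the alpha 3 or alpha 5 chain, was high in both, at 2706, 2724 and 2696 in SKOV-3 and 2992, 3394 and 3549 in Caov-3. Its small difference of 0.28 (SE 0.0844, adjusted p 0.0191) fell out of the call with a prior variance that followed no trend (0.28, adjusted p 0.0636). It also did so without either array of siltuximab plus IL-6 (0.23), where both fits give the same difference by design.

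Of the collagen receptors, none was called between the lines. ITGA2, which pairs with beta 1 on epithelial cells and platelets, had 1696 to 1818 in SKOV-3 and 1716 to 2075 in Caov-3 and was not called (0.07, SE 0.0946, adjusted p 0.513). ITGA1 lay close to the array median everywhere, at 116 to 133 in SKOV-3 and 104.8 to 159.8 in Caov-3 (-0.04, SE 0.248, adjusted p 0.892). ITGA10 and ITGA11 were below the median on every array, with highest signals of 107 and 112.

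Of the subunits that bind RGD proteins, ITGA5, the alpha chain of the classical fibronectin receptor, gave 719, 691 and 947 in SKOV-3 and 142, 230.4 and 215 in Caov-3. The ranges did not overlap (log2 difference -1.93, SE 0.174, adjusted p 6.26e-05). ITGAV, which joins several beta chains, stood the other way, with 3504 to 3684 in SKOV-3 and 5211 to 6822 in Caov-3 (0.67, SE 0.0905, adjusted p 0.000454). ITGA2B, the alpha chain of the platelet fibrinogen receptor, gave 24.8, 70.7 and 36.7 in SKOV-3 and 233, 193.0 and 193 in Caov-3 (1.93, SE 0.317, adjusted p 0.00122). With the median as pseudocount it was at 1.04. Its further probe sets, all below the array median, were at 1.84, -0.01 and 0.08. The platelet genes PF4, PPBP, GP9 and GP1BA had a summed signal of 141 to 205 in SKOV-3 and 132 to 336 in Caov-3, where 1 of the 4 reached the array median on any array. PF4 was at 14.6 to 41.7 in SKOV-3 and 48.8 to 109.2 in Caov-3, without overlap, and was called higher only in the unfiltered fit (1.05, adjusted p 0.0241). The lines overlapped for PPBP, a platelet chemokine (0.8 to 12.7 in SKOV-3 and 2.1 to 31.8 in Caov-3). They also did for GP9 (7.4 to 78.5 and 29.0 to 93.9) and GP1BA (83.7 to 103.9 and 50.2 to 101.4). ITGA8, which binds nephronectin, was below the median throughout, with a highest signal of 57.1. So was ITGA9, a tenascin receptor outside this RGD group, with a highest signal of 66.1.

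The alpha subunits of leukocytes were low as well. ITGA4 reached at most 29.8 and ITGAL, the alpha chain of LFA-1, at most 48.4. ITGAX, of the complement receptor family, had 77.0, 84.6 and 73.8 in SKOV-3 and 15.9, 25.9 and 22.7 in Caov-3, all below the median. It was called only in the unfiltered fit (-1.32, adjusted p 0.00981), and its second probe set, also below the median, was at 0.09. ITGAE, which lymphocytes use to bind E-cadherin, was by contrast bright in both lines, at 1865 to 2215 in SKOV-3 and 1943 to 2695 in Caov-3, with no call between them (0.14, SE 0.134, adjusted p 0.381). In the RefSeq annotation (GRCh38.p14) the ITGAE gene spans chr17:3714628-3801188 and overlaps 2 other genes, HASPIN and P2RX5, and whether their transcripts add to this signal was not tested.

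**Figure D2:**
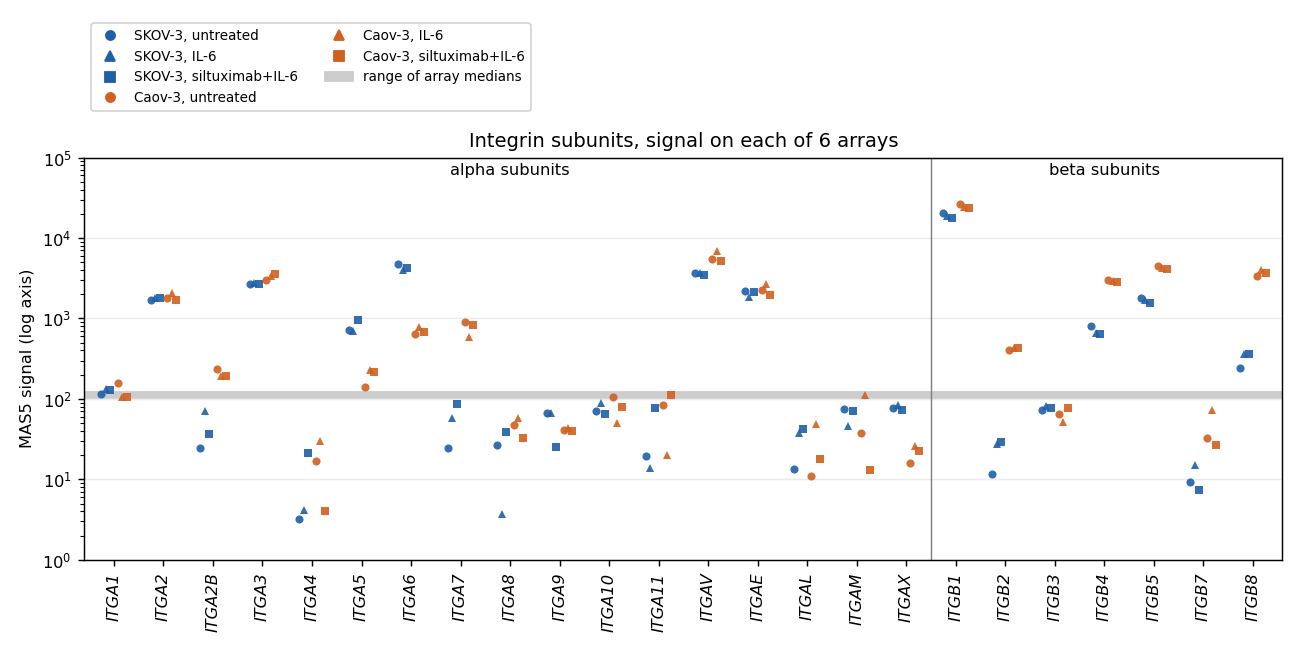
MAS5 signal (log axis) of the 24 integrin subunit genes on each of the 6 arrays, SKOV-3 in blue and Caov-3 in orange, with the treatment as symbol and the range of array medians (102.1 to 121.8) as a grey band. ITGA6 and ITGA5 are brighter in SKOV-3, whereas ITGB8, ITGB4, ITGB5, ITGB2 and ITGA7 are brighter in Caov-3; signals of different genes come from different probes and cannot be ranked against each other.

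All 5 beta subunits that were tested were higher in Caov-3, where 38.6% of all genes tested were called higher, and 1 of the 5, ITGB2, passed the filter through Caov-3 alone. ITGB8, which with alpha v binds latent TGF-beta, had 239, 360.0 and 359.7 in SKOV-3 and 3353, 4026 and 3657 in Caov-3. All Caov-3 arrays lay far above all SKOV-3 arrays (log2 difference 3.48, 11.1-fold, SE 0.116, adjusted p 9.23e-07). The other ITGB8 probe sets were all below the array median, and the mean over all of them with the bright one gave 1.49. ITGB4, the hemidesmosome subunit that pairs only with alpha 6, gave 810.5, 655 and 634 in SKOV-3 and 2975, 2913 and 2807 in Caov-3 (2.03, 4.09-fold, SE 0.0996, adjusted p 4.22e-06). Dimmer ITGB4 probe sets gave 1.51, 0.63 and, where they stayed below the median, -0.33 and -0.25, and the mean over all probe sets gave 0.72. ITGB5, which with alpha v binds vitronectin, gave 1805, 1689 and 1559.9 against 4491, 4197 and 4126 (1.33, SE 0.0776, adjusted p 8.65e-06). Another ITGB5 probe set, used when probe sets whose names mark possible cross-hybridisation were left out, differed by only 0.26 (adjusted p 0.136), which ended the call, and the mean over all probe sets gave 0.77.

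ITGB1, the most widely shared beta chain, was bright everywhere, with 17959 to 20198 in SKOV-3 and 23718 to 26178 in Caov-3. The difference was small and the ranges did not overlap (0.39, SE 0.0585, adjusted p 0.000811), and its 2 further bright probe sets were at 0.65 and 0.57. ITGB2, the beta chain of leukocyte integrins, had 11.7, 27.3 and 29.2 in SKOV-3 and 405, 424 and 433 in Caov-3 (3.49, SE 0.247, adjusted p 2.05e-05). Its next bright probe set was at 2.94, and the mean over all probe sets gave 2.23. With the median as pseudocount ITGB2 was at 1.99. Of the 7 measured leukocyte markers, 3 were at or above the median on all arrays of SKOV-3 and 3 on all arrays of Caov-3. CD53 (119.5 to 137.0 in SKOV-3 and 119.4 to 158.4 in Caov-3) and CD79A (180.0 to 343.6 and 148.8 to 201.2) were so in both lines. PTPRC, carried by nearly all leukocytes, was below the median on every array (2.0 to 34.9 in SKOV-3 and 25.1 to 35.1 in Caov-3). The summed signal of the 7 markers was 831 to 1228 in SKOV-3 and 1052 to 1181 in Caov-3. Within that list CD14, a monocyte gene, was higher in Caov-3 (573 to 667, against 77.6 to 135) and LAPTM5 was higher in SKOV-3 (319 to 350.9, against 5.3 to 52.7). In RefSeq (GRCh38.p14) the ITGB2 gene (chr21:44885953-44928815) overlaps the RNA genes ITGB2-AS1 and LOC107987303, whose part in its signal was not tested. ITGB3 and ITGB7 were below the median on all arrays, at 51.4 to 81.8 and 7.3 to 72.9.

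Alpha and beta subunits were then paired by the known heterodimers. Of 22 pairs with both genes measured, both partners were at or above the array median on all 3 arrays for 9 pairs in SKOV-3 and for 9 in Caov-3, and 8 of these were the same pairs. The 8 were ITGB1 with ITGA2, ITGA3, ITGA5, ITGA6 and ITGAV, ITGAV with ITGB5 and with ITGB8, and ITGA6 with ITGB4. ITGA7 with ITGB1 passed in Caov-3 alone, and ITGA1 with ITGB1 in SKOV-3 alone, where ITGA1 had signals of 116 to 133 beside array medians of 103.1 to 110.8. For 12 pairs at least 1 partner was below the median in each line.

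Partners often differed in unlike ways. The pair of ITGA6 and ITGB4 was the widest apart of those with both genes tested, since ITGA6 was at -2.60 and ITGB4 at 2.03. ITGAV (0.67) and its partners ITGB5 (1.33) and ITGB8 (3.48) were all higher in Caov-3. ITGB1 (0.39) differed far less than its partners ITGA5 (-1.93), ITGA6 (-2.60) and ITGA7 (3.50). Some subunits above the median lacked a listed partner that was above it too. For ITGB2 in Caov-3 the partners ITGAL, ITGAM and ITGAX were low, save ITGAM in Caov-3 after IL-6 (110.5). The other Caov-3 arrays had 37.3 and 13.2 for ITGAM, and SKOV-3 had 46.4 to 75.2. ITGA2B in Caov-3 lacked such a partner as well, with ITGB3 low, as did ITGAE in both lines, with ITGB7 low.

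**Figure D3:**
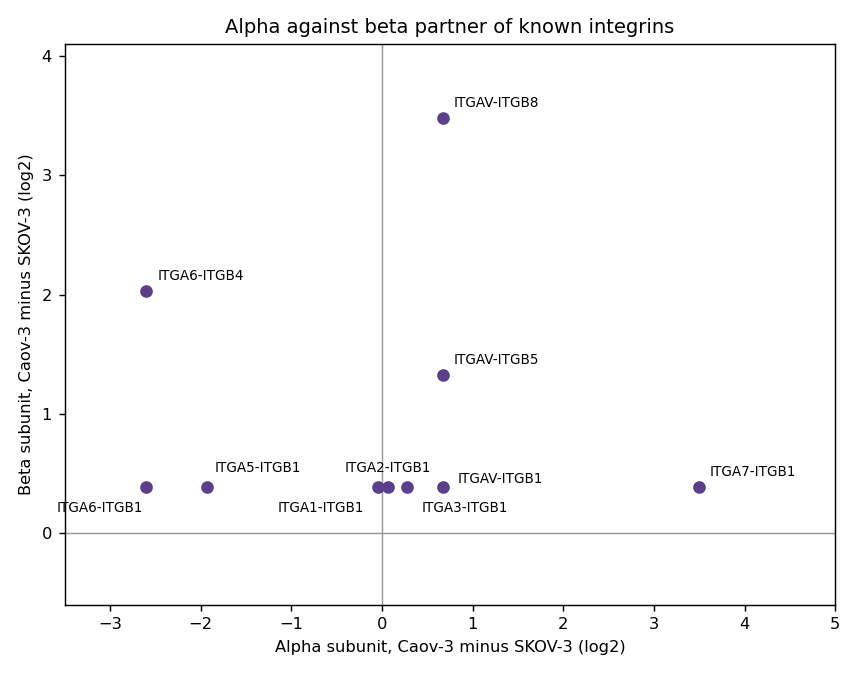
Difference between the lines (Caov-3 minus SKOV-3, log2) of the alpha subunit on the horizontal axis and of the beta subunit on the vertical axis, for the integrin pairs whose genes were both tested. Pairs with ITGB1 lie in a row at 0.39 from -2.60 (ITGA6) to 3.50 (ITGA7), and ITGA6 with ITGB4 is the pair whose partners lie farthest on opposite sides of 0.

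The upstream sequences of laminin and integrin genes with clear differences are shown so that motifs of factors known to act on such genes can be read in them. RefSeq (GRCh38.p14) gave a start site for 24 of the 34 genes, with 31 start sites in all. The 250 bases before the start are printed 5' to 3' on the gene's own strand, with motif matches in capitals. ITGB8 (chr7:20330650-20330899, plus strand) and LAMC1 (chr1:183023170-183023419, plus strand) are the subunit gene with the smallest adjusted p and the gamma chain that was lower in Caov-3, and their capitals mark SP1 motifs. LAMB3 (chr1:209651375-209651624, minus strand, 1 of 3 starts) holds an AP-1 motif and an SP1 motif, and LAMB2 (chr3:49133051-49133300, minus strand) an SP1 motif and a STAT motif.
ITGB8: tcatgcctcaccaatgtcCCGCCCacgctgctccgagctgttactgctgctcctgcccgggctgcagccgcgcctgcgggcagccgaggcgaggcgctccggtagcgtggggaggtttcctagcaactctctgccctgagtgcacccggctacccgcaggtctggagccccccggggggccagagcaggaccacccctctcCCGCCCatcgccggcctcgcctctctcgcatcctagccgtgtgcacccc
LAMC1: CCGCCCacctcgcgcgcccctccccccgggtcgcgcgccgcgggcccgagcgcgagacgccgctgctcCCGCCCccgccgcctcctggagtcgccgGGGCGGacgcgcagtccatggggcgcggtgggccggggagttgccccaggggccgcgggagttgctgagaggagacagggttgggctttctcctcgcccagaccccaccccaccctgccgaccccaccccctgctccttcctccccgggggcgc
LAMB3: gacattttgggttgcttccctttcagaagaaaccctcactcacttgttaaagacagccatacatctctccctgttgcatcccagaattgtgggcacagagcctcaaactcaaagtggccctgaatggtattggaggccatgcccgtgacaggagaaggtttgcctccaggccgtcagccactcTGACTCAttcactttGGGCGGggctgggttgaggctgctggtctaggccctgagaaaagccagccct
LAMB2: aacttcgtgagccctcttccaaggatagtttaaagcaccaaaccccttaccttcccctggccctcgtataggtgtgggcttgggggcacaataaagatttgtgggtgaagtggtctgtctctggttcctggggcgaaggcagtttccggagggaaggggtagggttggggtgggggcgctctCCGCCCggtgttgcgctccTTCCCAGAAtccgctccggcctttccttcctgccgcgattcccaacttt

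Matches were sought on both strands for TTCNNNGAA (the STAT factors that IL-6 activates), TGANTCA (AP-1), GGGCGG (SP1) and CACCTG (an E-box read by ZEB and SNAIL factors). The STAT motif occurred in 2 of the 24 genes, LAMB2 (first base at -49 from the start) and ITGAE (-235), which is 8.33% against 8.09% of all 27305 genes with such a sequence. The AP-1 motif was found in LAMB3 alone (-67), 4.17% against 8.06%. The SP1 motif was found in 13 of 24 (54.2% against 46.2%), in 6 of the 8 matched genes higher in Caov-3 and in 4 of the 5 lower there. The E-box was found in 6 of 24 (25% against 20.6%), in 3 of those 8 and in 1 of those 5. The STAT share was near that of all genes. With 24, 8 and 5 genes the shares are imprecise, and their distance from those of all genes was not tested. A match describes the letters only.

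All 7 laminin chains tested were called between the lines, 4 higher and 3 lower in Caov-3, where 70.8% of all genes tested were called, and LAMA1 and LAMA4 passed the filter through 1 line only. Of the alpha chains, LAMA1, which is mostly embryonic and epithelial, had 45.5, 95.9 and 72.9 in SKOV-3 and 558, 617 and 549.9 in Caov-3, below the median on all SKOV-3 arrays and above it on all Caov-3 arrays (log2 difference 2.78, SE 0.207, adjusted p 2.52e-05). LAMA5, the chain of most adult epithelial basement membranes, had 2262, 1303 and 1920.2 in SKOV-3 and 4359, 4123 and 3991 in Caov-3 (1.21, SE 0.141, adjusted p 0.000216). LAMA4, found in vessel and mesenchymal matrix, was the opposite, with 217, 195 and 226 in SKOV-3 and 40.6, 15.3 and 13.3 in Caov-3 (-2.58, SE 0.310, adjusted p 0.000257). Its Caov-3 signals were below the median, and the difference ran from -3.32 with a pseudocount of 1 to -1.28 with the median as pseudocount. Further LAMA4 probe sets were at -1.50, where 1 array reached the median, and at 0.31, 0.01 and -0.28, where 0 did. The vascular genes VWF and CDH5 were below the median on all arrays of both lines, PECAM1 was above it on all 6, and the 3 summed to 157 to 249.6 in SKOV-3 and 408 to 1206 in Caov-3. LAMA2, of muscle and nerve, had 98.2 to 112 in SKOV-3 and 43.8 to 74.7 in Caov-3, reached the median on the SKOV-3 IL-6 array only and was not tested.

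Beta chains split as well. LAMB1 had 3440.1, 3870.2 and 3813 in SKOV-3 and 1693, 2369 and 1977 in Caov-3 (-0.89, SE 0.0912, adjusted p 0.000119), and its second probe set was at -0.86. LAMB2 had 545.5, 439 and 412 in SKOV-3 and 1048, 1086 and 1013 in Caov-3 (1.15, SE 0.124, adjusted p 0.000151). LAMB3, the beta chain of the laminin that anchors epithelium, had 238, 126 and 173 in SKOV-3 and 753, 566 and 646 in Caov-3 (1.81, SE 0.155, adjusted p 4.82e-05). Thus LAMB1 was the beta chain with more signal in SKOV-3, while LAMB2 and LAMB3 had more in Caov-3, and none of the 3 had overlapping ranges. The summed signal of the 6 epithelial markers was 35976 to 41892 in SKOV-3 and 84574 to 87879 in Caov-3, and its part in the differences of LAMB3 and ITGB4 was not tested.

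LAMC1, the gamma chain of most laminins, had 6806, 5188 and 5313 in SKOV-3 and 1173, 1329 and 1334 in Caov-3 (-2.15, SE 0.125, adjusted p 8.66e-06). The second LAMC1 probe set stood at -1.18, in the same direction but less far. LAMC3 and LAMB4 were below the median on all arrays, with highest signals of 77.9 and 46.2. LAMC3 was called only in the unfiltered fit (1.16, adjusted p 0.0193), and its other probe set, also below the median, was at -0.46. The integrin ITGB7 was likewise called only in that fit (1.08 in log2, adjusted p 0.0233).

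Trimers were read in the same way, over 8 known combinations of an alpha chain with LAMB1 or LAMB2 and with LAMC1. Combinations with LAMA5 had all chains above the median in both lines, those with LAMA4 in SKOV-3 alone, those with LAMA1 in Caov-3 alone, and those with LAMA2 in neither. All combinations contained LAMC1, which was lower in Caov-3, whereas LAMA1, LAMA5 and LAMB2 were higher there. LAMA4, LAMB1 and LAMC1 are a combination whose 3 chains were all higher in SKOV-3.

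**Figure D4:**
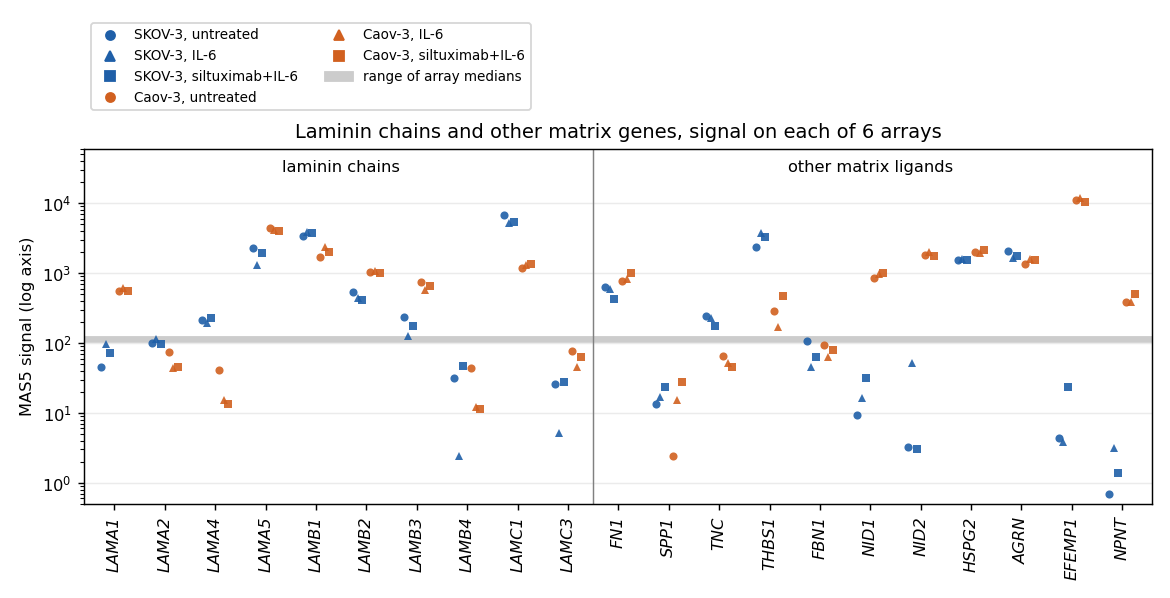
MAS5 signal (log axis) of the 10 laminin chain genes and of 11 other matrix genes on each of the 6 arrays, SKOV-3 in blue and Caov-3 in orange, with the treatment as symbol and the range of array medians as a grey band. LAMA1, NID1, NID2, EFEMP1 and NPNT lie above the band only in Caov-3, and LAMA4 and TNC only in SKOV-3.

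The genes that work beside these subunits were taken from an adhesion list of which 42 genes were measured. Of 37 tested, 13 were called higher and 17 lower in Caov-3, 81.1% against 70.8% of all genes, with a median log2 difference of -0.05 against 0.07. Among matrix ligands and basement membrane partners 6 of 9 were higher and 2 lower, so that 88.9% were called against the same 70.8%. Of these 9, 5 (NID1, NID2, NPNT, EFEMP1 and TNC) passed the filter through 1 line only and so had to lie apart. NID1 and NID2, the nidogens that link laminin to collagen, had 9.4 to 31.5 and 3.0 to 51.2 in SKOV-3 and 848 to 1008 and 1764 to 1990.5 in Caov-3 (log2 differences 4.77 and 5.95). NPNT, a ligand of alpha 8 beta 1, was at 0.7 to 3.1 in SKOV-3 and 382 to 496 in Caov-3 (4.54), where ITGA8 itself was low. EFEMP1, a fibulin, was at 3.8 to 23.7 and 10439 to 11934 (8.72).

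Fibronectin, FN1, was moderately higher in Caov-3 (0.64, SKOV-3 432 to 637 and Caov-3 783 to 1004.5), the line with less of its receptor subunit ITGA5. Thrombospondin THBS1 and tenascin TNC, which also bind integrins, were higher in SKOV-3. THBS1 had 2386 to 3722 there and 171 to 469 in Caov-3 (-3.36), and TNC 177 to 241 there and 45.5 to 65.2 in Caov-3 (-1.71).

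Of the 20 cytoplasmic partners tested, 5 were higher and 10 lower in Caov-3, so that 75% were called against 70.8% of all genes tested (38.6% higher and 32.3% lower). The kindlin FERMT1, which activates beta chains from inside, was at 1209 to 1286 in SKOV-3 and 184 to 191 in Caov-3 (-2.63), and its relative FERMT2 was at -1.27. PTK2, the focal adhesion kinase, was at -1.64, the actin crosslinker ACTN4 at -1.49 and the docking protein BCAR1 at -1.32, while the paxillin relative TGFB1I1 was at 1.47. The other laminin receptors and hemidesmosome genes had 2 higher and 5 lower of 8 (87.5% called against the same 70.8%), with the tetraspanin CD9, a partner of several integrins, at 3824 to 4534 in SKOV-3 and 17146 to 18530 in Caov-3 (2.10). PLEC, which ties integrin beta 4 to keratin, was at 864 to 1134 in SKOV-3 and 418 to 441 in Caov-3 (-1.18), opposite to ITGB4. Each difference named for this list was called by limma, with adjusted p of 0.0173 for FN1 and below 0.001 for the others.

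The next question was whether IL-6 moved the subunits within 1 h. Over both lines limma called 0 of the 21 genes for IL-6 and 0 of all 12290 genes (0%), with 4 of the 21 (19%) and 9.62% of all genes at an unadjusted p under 0.05. LAMB3, LAMB1, ITGB8 and LAMA5 were the 4, at log2 differences of -0.62 (SE 0.189, adjusted p 0.421), 0.33 (0.447), 0.41 (0.447) and -0.43 (0.490). The adjusted p of LAMB3 was the smallest of the 21. A fit without the SKOV-3 or the Caov-3 IL-6 array rests on 1 IL-6 array, so it cannot test a response over both lines.

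In SKOV-3, 1 array against 1 array, 2 of 18 subunit genes that passed the filter for this pair were at least 1.5-fold lower with IL-6 and 0 were higher, against 4.59% and 3.02% of 11411 genes (7.62% in either direction). LAMB3 had 238 untreated and 126 with IL-6, a log2 fold of -0.83, and LAMA5 2262 and 1303, a log2 fold of -0.79. ITGB8 was just short of the mark, with 239 and 360.0, a log2 fold of 0.56. ITGA2B, ITGA7, LAMA1 and ITGB2 had folds of 1.07, 0.86, 0.85 and 0.62 but were below the median on both arrays. The median of the 18 was -0.10, against -0.05 for all genes, and the robust SD of all folds was 0.262.

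In Caov-3, 2 of 21 subunit genes counted for this pair were at least 1.5-fold higher and 1 lower with IL-6. Of all 11862 genes, 5.04% were higher and 6.16% lower (11.2% in either direction). These 21 subunit genes hold ITGAM, which limma did not test, and leave out LAMA4, which it did. ITGA5 went from 142 to 230.4, a log2 fold of 0.64, ITGA7 from 907 to 591, a log2 fold of -0.60, and ITGAM, a leukocyte subunit, from 37.3 to 110.5, a log2 fold of 1.23. ITGAM was counted only because the IL-6 array, at 110.5, passed its median of 102.1, and its second probe set had 19.6 and 19.9, a log2 fold of 0.01. LAMB3 went from 753 to 566 (-0.40) and LAMB1 from 1693 to 2369 (0.48). Of 16 subunit genes counted in both lines, 9 stood the same way with IL-6 in both, against 53.3% of all genes, and LAMB3 had the largest smaller fold among them. ITGB8 (0.56 and 0.26), LAMB1 (0.17 and 0.48) and ITGB1 (-0.11 and -0.10) followed. The second LAMB1 probe set, also above the median on all arrays, did not stand the same way in both lines (-0.12 in SKOV-3 and 0.15 in Caov-3). A further bright ITGB1 probe set did not either (-0.16 and 0.15), and another did (-0.17 and -0.11).

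The array of Caov-3 with IL-6 was the one with the low beta-actin ratio, and dimmer probe sets of some subunits were low on it alone. The dimmer ITGA2 probe set had 279 in untreated Caov-3, 56.2 after IL-6 and 243 after the antibody plus IL-6, while the bright one had 1802, 2075 and 1716. Dimmer ITGB4 probe sets had 402, 43.7 and 248 in one case and 1259.8, 729.5 and 1209 in another, while the bright one had 2975, 2913 and 2807. The part of RNA quality in these values was not tested. Without that array the counts of subunit genes called between the lines were 13 higher and 5 lower, as with it. Those line differences rest on the other treatments only.

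Siltuximab before IL-6 was set against IL-6 alone, which shares the IL-6 arrays with the comparison above. limma called 0 of the 21 subunit genes and 0 of 12290 genes (0%), with 0 of the 21 and 398 of all genes at an unadjusted p under 0.05. In SKOV-3, 0 of 18 subunit genes were at least 1.5-fold apart, against 4.56% of 11238 genes (2.11% higher and 2.46% lower). LAMA5 had 1303 with IL-6 and 1920.2 with the antibody (log2 fold 0.55), ITGA5 691 and 947 (0.45), and LAMB3 126 and 173 (0.41). The 21 subunit genes counted in Caov-3 again held ITGAM and not LAMA4. Of these, 1 was at least 1.5-fold apart, against 8.14% of 11829 genes (5.27% higher and 2.87% lower). It was ITGAM, with 110.5 and 13.2 (-2.08), counted through the IL-6 array alone. Its second probe set went the other way, from 19.9 to 47.0 (0.79), and the fold ran from -2.97 to -0.83 with the pseudocount, so the count of 1 rests on 1 dim probe set. LAMB3 had 566 and 646 (0.18), ITGAE 2695 and 1943 (-0.47) and ITGAV 6822 and 5211 (-0.39). Of 16 subunit genes counted in both lines, 10 stood the same way, against 47.9% of all genes, with LAMB3, LAMB2 (-0.09 and -0.10), ITGAV (-0.07 and -0.39) and ITGB4 (-0.05 and -0.05) in front.

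With siltuximab and IL-6 against untreated, 0 of 17 subunit genes in SKOV-3 and 0 of 20 in Caov-3 were at least 1.5-fold apart, against 6.73% of all genes in SKOV-3 (2.33% higher and 4.4% lower) and 5.27% in Caov-3 (2.67% higher and 2.61% lower). LAMB3 was at -0.43 and -0.22, ITGA5 at 0.39 and 0.54 and ITGB8 at 0.56 and 0.12. None of these within-line folds had a replicate check.

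**Figure D5:**
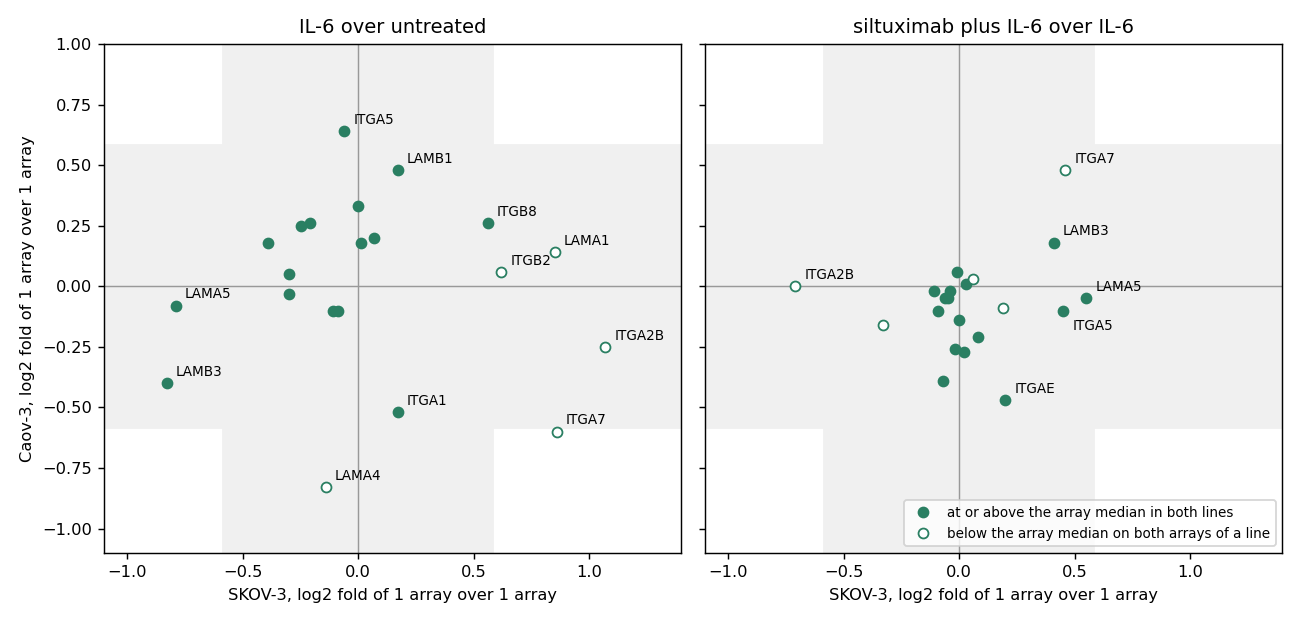
Log2 fold of 1 array over 1 array in SKOV-3 (horizontal axis) and Caov-3 (vertical axis) for the 21 subunit genes of the limma fit, with IL-6 over untreated on the left and siltuximab plus IL-6 over IL-6 on the right. Open points were below the array median on both arrays of a line; the grey cross holds folds under 1.5-fold in at least 1 line, and the only point outside it is the open one of ITGA7 with IL-6 (0.86 and -0.60).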

How the data were processed

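The deposited intensities are linear, 1 for each probe set, from 6 Affymetrix U133 Plus 2.0 arrays, made with Affymetrix Expression Console and MAS5 per the submitters' processing notes, versions not given in the sources used here. They had been scaled by array (2% trimmed mean of 500.06 to 500.07). Values were taken to log2 after adding 17.06, the 20th percentile of values of the 41091 probe sets with 1 gene symbol, so folds of dim genes are understated. Detection calls were not used. The brightest probe set by mean log2 stood for a gene.

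limma 3.58.1 (R 4.3.3) took all 6 arrays in a model of line plus treatment, leaving 2 residual degrees of freedom. Its prior variance followed a trend. The code was also run on simulated data with independent noise, which does not test the p-values given here. For 1 array against 1 array, genes were counted where the brighter of both arrays reached its own array median. Alternatives changed the pseudocount, filter, scaling, probe set rule, prior and arrays. Members, lists and heterodimers were chosen with earlier results of these data known. The text names every member, and of the adhesion list the 6 called genes with the largest difference each way plus others of interest (FN1, FERMT2 and PLEC), chosen after their values were seen. Python 3.11.15 was used for other steps.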

Additional observations from a re-analysis of the deposited data

How the results depend on the processing

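The counts of subunit genes called between the lines were 13 higher and 5 lower in Caov-3, and leaving out each array in turn gave 12 to 13 and 5 to 5. When names ending in _x_at and _s_at were dropped, 8 were called higher, with 16 subunit genes left to test. Calls of subunit genes for the treatments stayed at 0 in every alternative with all arrays, for IL-6 and for siltuximab. A fit without 1 array leaves 1 array of a treatment and cannot test that treatment over both lines. Of 302 alternative line differences of the 21 genes, 291 kept direction and side of the threshold, 4 lost the call and 7 reversed, all 7 in uncalled genes. The reversals were ITGA1 without either IL-6 array (0.08) or either siltuximab array (0.07), and ITGAE without either IL-6 array (-0.06). ITGA2 also reversed when its probe sets were averaged (-0.40). What moved these signs was not tested. Leaving out either line's array of a treatment gives the same line difference by design. The counts above hold both fits of each such pair, which are not separate checks. Over the fits without 1 array ITGA1 ranged from -0.27 to 0.08 and ITGAE from -0.06 to 0.28.

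Counts of subunit genes at least 1.5-fold apart within a line moved with the treatment of dim genes, and 1 of them also with the scaling. With IL-6 in SKOV-3 the 2 became 1 with a pseudocount of the median, 1 when the filter was raised to the 75th percentile and 10 with no filter; in Caov-3 the 3 became 0, 1 and 11. For siltuximab against IL-6 with no filter the 0 in SKOV-3 became 7, and the 1 in Caov-3 became 5, 0 with the 75th percentile filter and 2 with averaged probe sets. Median shifts of all genes under quantile or cyclic loess scaling stayed within 0.1 of the deposited scaling. Signals near the pseudocount limit what can be said of the dim subunits. No replicate block was fitted, since each line and treatment had 1 array. The lines were compared with treatment as a block and the treatments with line as a block. The comparison of sizes among genes that reached the median in both lines was chosen after seeing the data.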
